A study of Homo sapiens with 9 samples.

Results

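The genes described here encode the proteins that read methylation of lysine 9 of histone H3 (H3K9), write it, or methylate DNA. They are the 3 heterochromatin protein 1 (HP1) genes CBX1, CBX3 and CBX5, the H3K9 methyltransferase genes SUV39H1, SUV39H2, EHMT1 and EHMT2, and the DNA methyltransferase genes DNMT1, DNMT3A and DNMT3B. They were taken by gene symbol from the deposited expression table, which lists 61806 genes, and each of the 10 symbols matched 1 row. All 10 passed the filter on low counts, which left 13562 genes for testing. Polyadenylated RNA was sequenced from 786-O cells, a line established from a clear cell carcinoma of the human kidney, in which the VHL tumour suppressor is not functional. The 9 libraries form 3 groups of 3: TRIM28 knockdown, PARP1 knockdown and control. Some labels name the reagents as siRNA and another as shRNA, and the controls are called negative control in some places and parental in others, so neither the kind of reagent nor the handling of the controls is settled by them. The genotype label reads wild type for control and names the knockdown for the other groups, and 1 batch label covers all 9. The labels do not say whether the replicates came from separate cultures, and p-values therefore cover only the spread among these libraries, which may be technical.

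H3K9 methylation is the mark of heterochromatin, and HP1 proteins bind it through their chromodomain and compact the chromatin around it. SUV39H1 and SUV39H2 write the trimethyl form, chiefly at pericentric repeats, whereas EHMT1 and EHMT2 (GLP and G9a) work as a dimer that writes the mono- and dimethyl forms in euchromatin. DNMT1 copies DNA methylation onto the new strand after replication, and DNMT3A and DNMT3B add it to unmethylated sites. KRAB zinc finger proteins tether the corepressor TRIM28 to DNA, where it recruits the H3K9 methyltransferase SETDB1 and HP1, and it is best known for silencing transposable elements. PARP1 makes poly(ADP-ribose) chains on itself and on chromatin proteins, above all where DNA is broken.

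The promoters of 4 of these genes are shown, the 3 HP1 genes and SUV39H1. CBX1, CBX3 and CBX5 were lower in both knockdowns, as were SUV39H2, DNMT1 and DNMT3A, whose windows are not printed. SUV39H1 was higher in PARP1 knockdown. Each printed window is the 250 bases before the RefSeq start (GRCh38.p14) nearest the 5′ end of the gene's row. It is read 5′ to 3′ on the gene's own strand, with CpG dinucleotides, the sites of DNA methylation, in capitals. The windows are chr17:48101187-48101436 on the minus strand for CBX1, chr7:26201193-26201442 on the plus strand for CBX3, chr12:54280123-54280372 on the minus strand for CBX5 and chrX:48695304-48695553 on the plus strand for SUV39H1.
CBX1: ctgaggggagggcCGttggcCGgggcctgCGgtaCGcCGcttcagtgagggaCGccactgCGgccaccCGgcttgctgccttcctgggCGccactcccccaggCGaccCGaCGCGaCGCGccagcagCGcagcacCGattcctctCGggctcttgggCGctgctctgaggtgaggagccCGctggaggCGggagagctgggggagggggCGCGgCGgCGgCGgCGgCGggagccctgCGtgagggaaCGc
CBX3: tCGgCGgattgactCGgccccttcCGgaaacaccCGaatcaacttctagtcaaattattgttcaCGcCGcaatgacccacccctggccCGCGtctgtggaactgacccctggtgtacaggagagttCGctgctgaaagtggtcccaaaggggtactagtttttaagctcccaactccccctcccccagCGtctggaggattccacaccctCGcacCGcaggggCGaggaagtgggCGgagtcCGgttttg
CBX5: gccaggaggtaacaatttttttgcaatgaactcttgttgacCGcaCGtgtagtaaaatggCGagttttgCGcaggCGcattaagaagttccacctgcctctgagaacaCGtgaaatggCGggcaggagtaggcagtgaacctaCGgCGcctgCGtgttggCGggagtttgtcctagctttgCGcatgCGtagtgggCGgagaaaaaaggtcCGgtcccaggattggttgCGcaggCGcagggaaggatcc
SUV39H1: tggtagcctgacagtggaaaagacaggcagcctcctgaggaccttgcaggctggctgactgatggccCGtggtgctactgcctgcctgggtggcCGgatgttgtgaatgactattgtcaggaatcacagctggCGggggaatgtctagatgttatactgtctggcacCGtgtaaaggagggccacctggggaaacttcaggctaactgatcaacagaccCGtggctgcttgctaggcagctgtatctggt
The CBX1 window holds 30 CpG dinucleotides, the CBX3 window 16, the CBX5 window 17 and the SUV39H1 window 5, against a median of 11 and quartiles of 3 and 23 over the 27305 RefSeq promoters of the same length. Among the genes without a printed window, EHMT1 has 43, SUV39H2 38, DNMT1 21, EHMT2 16, DNMT3A 12 and DNMT3B 3. The RefSeq starts used for DNMT1 and DNMT3B lie 36333 and 17467 bases from the 5′ ends of their rows in the table, so those windows lie away from the ends of the rows. RefSeq lists 3 starts for CBX5, 2 for SUV39H1 and 6 for DNMT3A, and the start nearest the 5′ end of the row was used. The 27305 promoters took the first listed start of each gene instead. For EHMT1 and EHMT2 the bases after the start were not found in a GENCODE transcript of the gene, and their counts are the less certain for it. These counts describe the sequence, and no methylation was measured in this study.

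The silenced genes were low in the libraries labelled for them. TRIM28 stood at 44.0, 54.7 and 58.0 CPM (CPM is a count scaled to the library's total, with TMM, trimmed mean of M-values, factors) in TRIM28 knockdown, against 316, 341 and 381 CPM in control. PARP1 stood at 6.82, 4.48 and 5.24 CPM in PARP1 knockdown, against 178, 200 and 153 CPM in control. PARP1 was at 94.4, 93.3 and 93.6 CPM after TRIM28 knockdown (log2 fold change -0.92, edgeR adjusted p = 3.61e-05), and the part of that in the changes of the 10 genes was not tested. Total counts ran from 12840619 to 16346186 in TRIM28 knockdown, from 11963110 to 15629533 in PARP1 knockdown and from 18042542 to 20224374 in control. Within a library, the log2 level of a gene relative to its mean over all libraries had a slope on the log2 of its summed exon length of -0.024 to -0.001 in TRIM28 knockdown, -0.167 to -0.097 in PARP1 knockdown and 0.073 to 0.203 in control, where control replicate 3 was the lowest. Of 8 markers of proximal tubule and clear cell carcinoma none was at 0 in all libraries, but NDUFA4L2 averaged 0.0266 CPM in TRIM28 knockdown, 0.140 in PARP1 knockdown and 0.0797 in control, and CA9 1.45, 1.40 and 1.20 CPM in the same order. Of the 7 tested, CDH6 and HAVCR1 fell in both knockdowns (log2 fold changes of -1.08 and -1.81 for CDH6, and of -1.08 and -1.63 for HAVCR1, in TRIM28 and PARP1 knockdown), NNMT rose in both (0.64 and 1.00), and the other 4 did not pass against control. The 8 summed to between 6120 and 6500 CPM in TRIM28 knockdown, 3910 and 6070 in PARP1 knockdown and 5770 and 6150 in control, most of it VIM with means of 5520, 4140 and 5240 CPM. Of 7 markers of blood, endothelium and fibroblasts, PTPRC and CD3E were at 0 in every library, and the 7 summed to between 3.27 and 4.11 CPM in TRIM28 knockdown, 2.72 and 3.76 in PARP1 knockdown and 2.23 and 3.32 in control.

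TRIM28 knockdown was compared with control to ask how the genes of this machinery respond when the corepressor that uses it is depleted. Of the 10 genes, 6 fell and 0 rose at a threshold of 0.05 (quasi-likelihood test of edgeR, p-values adjusted over all tested genes by Benjamini-Hochberg), where 17.5% of all 13562 genes fell, 10.3% rose and 27.8% changed in either direction. The genes that fell were CBX1, CBX3, CBX5, SUV39H2, DNMT1 and DNMT3A, and SUV39H1, EHMT1, EHMT2 and DNMT3B did not pass. By DESeq2, and likewise at an unadjusted edgeR p under 0.05, 1 gene rose and 6 fell. The median log2 fold change of the 10 was -0.43, against -0.02 over all tested genes. In 8 of the 10 the libraries of the knockdown and of control did not overlap, 7 of them lower, where 46.4% of all tested genes did not overlap and 25.3% were lower and 21.2% higher without overlap. The count of 6 became 3 when the trend with gene length, or the trends with length and GC content, were removed, and 1 with limma on log2(FPKM + 1) over all genes. It became 2 without TRIM28 knockdown replicate 2, control replicate 1 or control replicate 2, and 3 without TRIM28 knockdown replicate 3.

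PARP1 knockdown against control moved more of these genes. By the same test 8 of the 10 fell and 1, SUV39H1, rose, where 32.2% of all tested genes fell, 27.1% rose and 59.3% changed in either direction. EHMT2 did not pass. The median log2 fold change was -0.63, against -0.07 over all tested genes. The libraries of PARP1 knockdown and control did not overlap in 9 of the 10 genes, 8 of them lower, where 63.5% of all tested genes did not overlap and 33.0% were lower and 30.5% higher without overlap. With the length trend removed 4 fell (CBX1, CBX3, SUV39H2 and DNMT1) and 2 were higher (SUV39H1 and EHMT2). With length and GC trends removed CBX1, SUV39H2 and DNMT1 passed as lower and CBX5 as higher, and SUV39H1 did not pass, while scaling by library totals alone left 0 higher and 8 lower.

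TRIM28 knockdown against PARP1 knockdown asks whether the responses differ in size. CBX1 and DNMT1 were higher in TRIM28 knockdown than in PARP1 knockdown and 0 genes were lower, where 13.2% of all tested genes were higher, 11.9% lower and 25.1% different in either direction. DESeq2 likewise gave 2 higher and 0 lower, and an unadjusted edgeR p under 0.05 gave 3 higher and 1 lower. The other 8 did not pass, and the median log2 difference of the 10 was 0.21, against 0.03 over all tested genes. Libraries of the 2 knockdowns did not overlap for 3 genes, CBX1, CBX5 and DNMT1, where 39.4% of all tested genes did not overlap (20.7% higher and 18.7% lower). The count of 2 became 1 with the length trend removed or without TRIM28 knockdown replicate 3, 0 with limma over all genes, and 4 without PARP1 knockdown replicate 1. Both knockdowns were set against the same 3 control libraries, so their fold changes over control are not independent of each other.

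**Figure D1:**
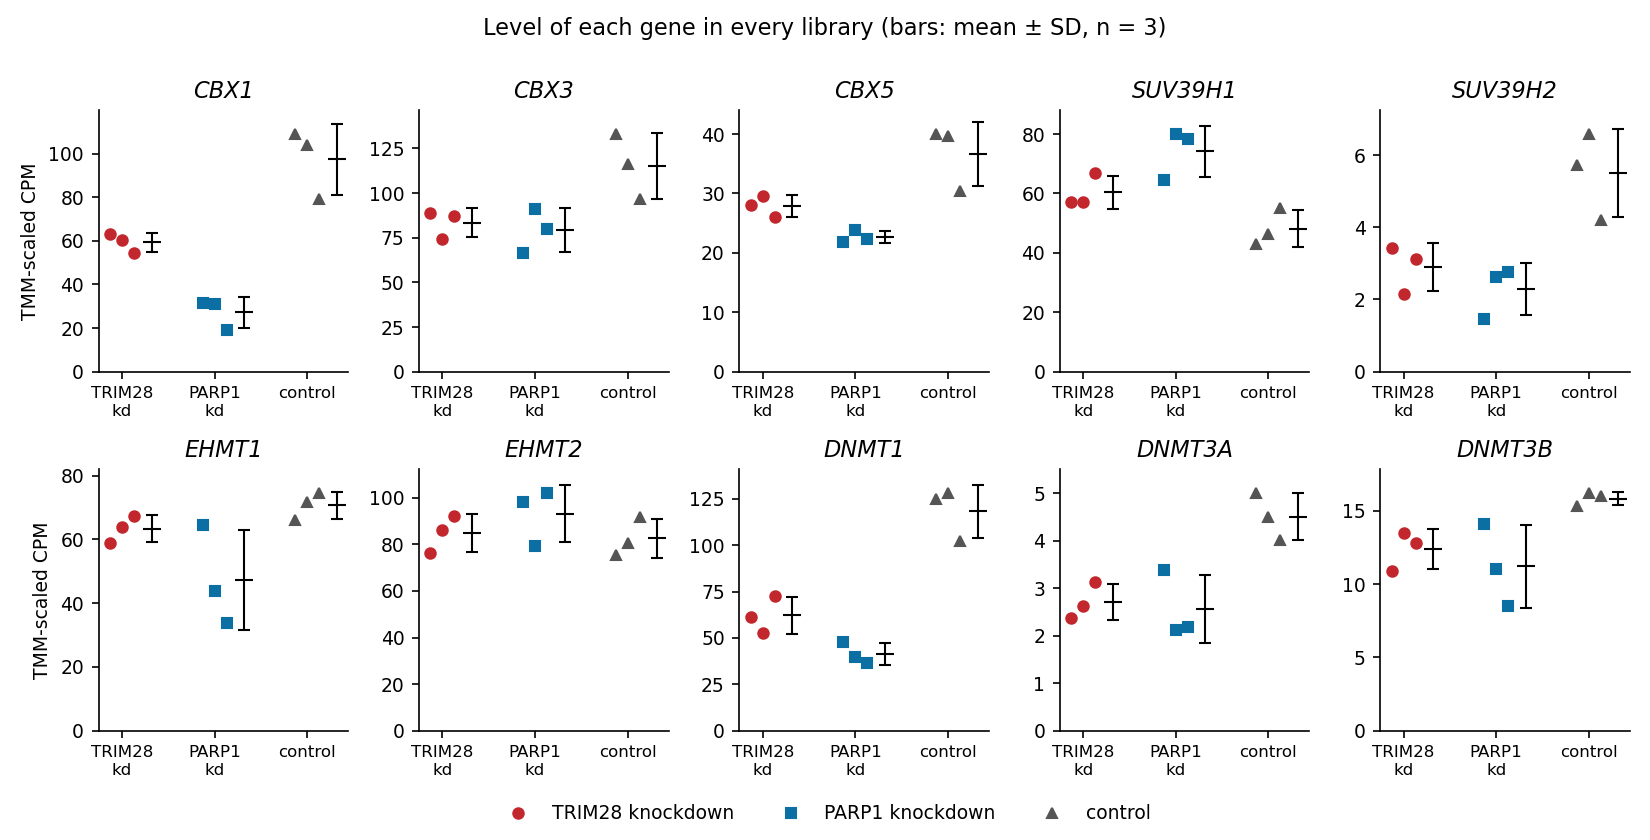
TMM-scaled CPM (vertical axes, each from 0) of the 10 genes in every library of TRIM28 knockdown (red circles), PARP1 knockdown (blue squares) and control (grey triangles), with bars for mean ± SD of 3 libraries. CBX1, CBX5 and DNMT1 lie in 3 separate tiers with PARP1 knockdown lowest, SUV39H1 lies in the opposite order with overlap between the knockdowns, and EHMT2 overlaps in all groups.

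Levels can be set between genes only per length, in FPKM (the count scaled to the library's total and to the gene's summed exon length), which here carry no TMM scaling. That length sums all exons listed for a gene and may exceed the transcript made in these cells, so the order depends on it. Without length, DNMT1 had the highest mean CPM in control at 118, with CBX3 at 115, EHMT2 at 82.7 and EHMT1 at 70.7. In control the order was CBX1 at 35.8 ± 7.02, CBX3 at 26.7 ± 5.11, SUV39H1 at 16.6 ± 1.52, EHMT2 at 12.6 ± 0.809, DNMT1 at 8.64 ± 1.31, EHMT1 at 3.56 ± 0.115, CBX5 at 2.73 ± 0.490, DNMT3B at 2.58 ± 0.0862, SUV39H2 at 1.73 ± 0.427 and DNMT3A at 0.367 ± 0.0551 FPKM (SD, n = 3). CBX1 overlapped CBX3 and CBX5 overlapped DNMT3B between libraries, and the other neighbours in that order did not overlap. In TRIM28 knockdown CBX1, SUV39H1 and CBX3 came together at 19.5 ± 1.44, 18.7 ± 2.02 and 17.3 ± 2.00 FPKM with overlapping neighbours. In PARP1 knockdown SUV39H1 was highest at 20.4 ± 1.05 FPKM, followed by CBX3 at 14.5 ± 1.55, EHMT2 at 11.4 ± 1.85 and CBX1 at 8.02 ± 2.48 FPKM, and of these neighbours only EHMT2 and CBX1 overlapped. SUV39H2 and DNMT3A were the lowest 2 in all 3 groups.

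CBX1 encodes HP1β and was the HP1 gene with the largest change in either knockdown. Its row (ENSG00000108468) spans chromosome 17, 48070052 to 48101478, minus strand of GRCh38. It stood at 63.1, 60.5 and 54.4 CPM in TRIM28 knockdown, 31.6, 31.0 and 18.9 CPM in PARP1 knockdown, and 109, 104 and 79.0 CPM in control. The 3 groups did not overlap, and control replicate 3 was the lowest control library. The log2 fold change was -0.71 ± 0.16 in TRIM28 knockdown (SE, edgeR adjusted p = 0.00224) and -1.83 ± 0.17 in PARP1 knockdown (edgeR adjusted p = 3.47e-09), which are 1.64-fold and 3.56-fold falls. CBX1 was 2.17-fold higher in TRIM28 knockdown than in PARP1 knockdown (log2 difference 1.12 ± 0.17, edgeR adjusted p = 0.000101). Of all alternatives, limma on log2(FPKM + 1) over all genes alone ended the TRIM28 knockdown call (-0.83, limma adjusted p = 0.0732) and the difference between the knockdowns (1.23, limma adjusted p = 0.0676).

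CBX3 encodes HP1γ, the form found also over active gene bodies (ENSG00000122565, chromosome 7, 26201162 to 26213607, plus strand). It stood at 88.7, 74.2 and 87.3 CPM in TRIM28 knockdown, 66.5, 91.0 and 80 CPM in PARP1 knockdown, and 133, 116 and 96.5 CPM in control. Every knockdown library lay below every control library, while the 2 knockdowns overlapped. CBX3 was 1.38-fold lower in TRIM28 knockdown (log2 fold change -0.46 ± 0.14, edgeR adjusted p = 0.0187) and 1.45-fold lower in PARP1 knockdown (-0.54 ± 0.15, edgeR adjusted p = 0.00243), and the difference between the knockdowns was 0.08 ± 0.15 (edgeR adjusted p = 0.743). The TRIM28 knockdown call ended with the length trend removed (-0.38), with length and GC trends removed (-0.19), with limma over all genes (-0.59), and without TRIM28 knockdown replicate 2 (-0.36) or 3 (-0.48) or control replicate 1 (-0.33) or 2 (-0.44). The PARP1 knockdown call ended only with length and GC trends removed (-0.07).

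CBX5 encodes HP1α, the form most tied to constitutive heterochromatin (ENSG00000094916, chromosome 12, 54230942 to 54280133, minus strand). It stood at 28.1, 29.6 and 26.0 CPM in TRIM28 knockdown, 21.9, 23.9 and 22.3 CPM in PARP1 knockdown, and 40.0, 39.6 and 30.4 CPM in control. The groups did not overlap, but control replicate 3 lay close to TRIM28 knockdown replicate 2. The fall was 1.31-fold in TRIM28 knockdown (log2 fold change -0.39 ± 0.15, edgeR adjusted p = 0.045) and 1.61-fold in PARP1 knockdown (-0.69 ± 0.15, edgeR adjusted p = 0.000272), and the difference between the knockdowns, 0.30 ± 0.15, did not pass (edgeR adjusted p = 0.147) except with library totals (0.47, edgeR adjusted p = 0.0406). With the length trend removed the changes were -0.00 in TRIM28 knockdown and -0.05 in PARP1 knockdown, and with length and GC trends removed they turned to 0.19 and to 0.31 (edgeR adjusted p = 0.0246). The TRIM28 knockdown call also ended without any 1 of its own libraries (-0.41 to -0.33), PARP1 knockdown replicate 2 (-0.39) or control replicate 1 (-0.31) or 2 (-0.32), with DESeq2 size factors (-0.36), with no filter (-0.41) and with limma over all genes (-0.38).

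The 3 HP1 genes summed to 38.7 ± 2.61 FPKM in TRIM28 knockdown, 23.8 ± 3.05 FPKM in PARP1 knockdown and 65.3 ± 12.5 FPKM in control (SD, n = 3). CBX1 made up 50.7, 53.5 and 47.5% of that sum in TRIM28 knockdown, 40.6, 33.3 and 25.6% in PARP1 knockdown, and 54.3, 56.2 and 54.2% in control. PARP1 knockdown libraries thus had the lowest CBX1 shares, without overlap with either other group, and CBX3 was the larger share there at 61.2% ± 7.28, against 44.6% ± 3.35 in TRIM28 knockdown and 40.9% ± 1.24 in control. With 3 libraries against 3, no exact permutation test of such a share can fall below 0.10, and none is given.

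SUV39H1, the founding mammalian trimethylating enzyme for H3K9, was the only one of the 10 to rise (ENSG00000101945, chromosome X, 48695554 to 48709016, plus strand). It stood at 57.1, 57.0 and 66.9 CPM in TRIM28 knockdown, 64.4, 80 and 78.3 CPM in PARP1 knockdown, and 42.9, 46.5 and 55.0 CPM in control. All knockdown libraries lay above all control libraries, and the 2 knockdowns overlapped. In PARP1 knockdown it rose 1.54-fold (log2 fold change 0.62 ± 0.14, edgeR adjusted p = 0.00042). The change in TRIM28 knockdown was 0.33 ± 0.14 (edgeR adjusted p = 0.078). Among other settings, it passed narrowly with DESeq2 (0.36, DESeq2 adjusted p = 0.05 after rounding) and with the 2 groups fitted alone (0.33, edgeR adjusted p = 0.0273). It also passed without PARP1 knockdown replicate 1 (0.33) or 3 (0.33) or control replicate 3 (0.46). With length and GC trends removed it was 0.07 (edgeR adjusted p = 0.702). The rise in PARP1 knockdown did not pass with library totals (0.29, edgeR adjusted p = 0.0587), with limma over all genes (0.28) or with length and GC trends removed (0.13). The difference between the knockdowns was -0.30 ± 0.14 (edgeR adjusted p = 0.119) and passed without PARP1 knockdown replicate 1 (-0.39).

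SUV39H2, the second trimethylating enzyme of this pair, moved the other way from a low level (ENSG00000152455, chromosome 10, 14878820 to 14904315, plus strand). It stood at 3.42, 2.15 and 3.13 CPM in TRIM28 knockdown, 1.46, 2.62 and 2.77 CPM in PARP1 knockdown, and 5.73, 6.58 and 4.19 CPM in control, from 22 to 136 counts per library. Every knockdown library was below every control library. It fell 1.88-fold in TRIM28 knockdown (log2 fold change -0.91 ± 0.28, edgeR adjusted p = 0.0167) and 2.45-fold in PARP1 knockdown (-1.29 ± 0.29, edgeR adjusted p = 0.000496), and the difference between the knockdowns was 0.39 ± 0.31 (edgeR adjusted p = 0.389). The call in TRIM28 knockdown ended without TRIM28 knockdown replicate 2 (-0.71), control replicate 1 (-0.86) or control replicate 2 (-0.74) and with limma over all genes (-0.58), while removing length and GC trends left -0.73 in TRIM28 knockdown and -0.97 in PARP1 knockdown, both past the threshold. Of the summed FPKM of the pair, SUV39H2 held 4.17% ± 0.920 in TRIM28 knockdown, 2.66% ± 0.598 in PARP1 knockdown and 9.55% ± 2.7 in control (SD, n = 3).

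Of the dimer partners, EHMT1 fell in PARP1 knockdown and EHMT2 did not pass, and the difference between these 2 genes was not tested. EHMT1 (ENSG00000181090, chromosome 9, 137618992 to 137870016, plus strand) stood at 58.8, 64.0 and 67.4 CPM in TRIM28 knockdown, 64.4, 43.8 and 33.7 CPM in PARP1 knockdown, and 66.2, 71.6 and 74.5 CPM in control. PARP1 knockdown lay below control in every library, with replicate 1 close to the control level and replicate 3 lowest, and TRIM28 knockdown overlapped control. EHMT1 fell 1.49-fold in PARP1 knockdown (log2 fold change -0.57 ± 0.16, edgeR adjusted p = 0.0042), and its change in TRIM28 knockdown was -0.16 ± 0.16 (edgeR adjusted p = 0.495). With the length trend removed the change turned to 0.08 in PARP1 knockdown and 0.24 in TRIM28 knockdown, and with length and GC trends removed it was -0.05 and 0.15 in the same order. Without PARP1 knockdown replicate 1 EHMT1 was higher in TRIM28 knockdown than in PARP1 knockdown (0.71, edgeR adjusted p = 7.99e-05), against 0.42 ± 0.17 with it (edgeR adjusted p = 0.0666), which also passed with no filter (0.42, edgeR adjusted p = 0.0415).

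EHMT2 (ENSG00000204371, chromosome 6, 31879759 to 31897698, minus strand) stood at 76.3, 86.3 and 92.3 CPM in TRIM28 knockdown, 98.4, 79.3 and 102 CPM in PARP1 knockdown, and 75.5, 80.7 and 91.9 CPM in control. All 3 groups overlapped. The log2 fold change was 0.04 ± 0.14 in TRIM28 knockdown (edgeR adjusted p = 0.859) and 0.17 ± 0.14 in PARP1 knockdown (edgeR adjusted p = 0.282), with a difference of -0.13 ± 0.14 between the knockdowns (edgeR adjusted p = 0.514). It passed as higher in PARP1 knockdown once the length trend was removed (0.57, edgeR adjusted p = 0.00144), and library totals turned its sign (-0.12 in TRIM28 knockdown and -0.15 in PARP1 knockdown). EHMT1 made up 19.7% ± 0.433 of the summed FPKM of the dimer genes in TRIM28 knockdown, 14.3% ± 4.06 in PARP1 knockdown and 22.0% ± 0.840 in control (SD, n = 3). These shares rest on summed exon lengths of 22188 bases for EHMT1 and 7300 bases for EHMT2. Their mean CPM in control were 70.7 and 82.7.

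**Figure D2:**
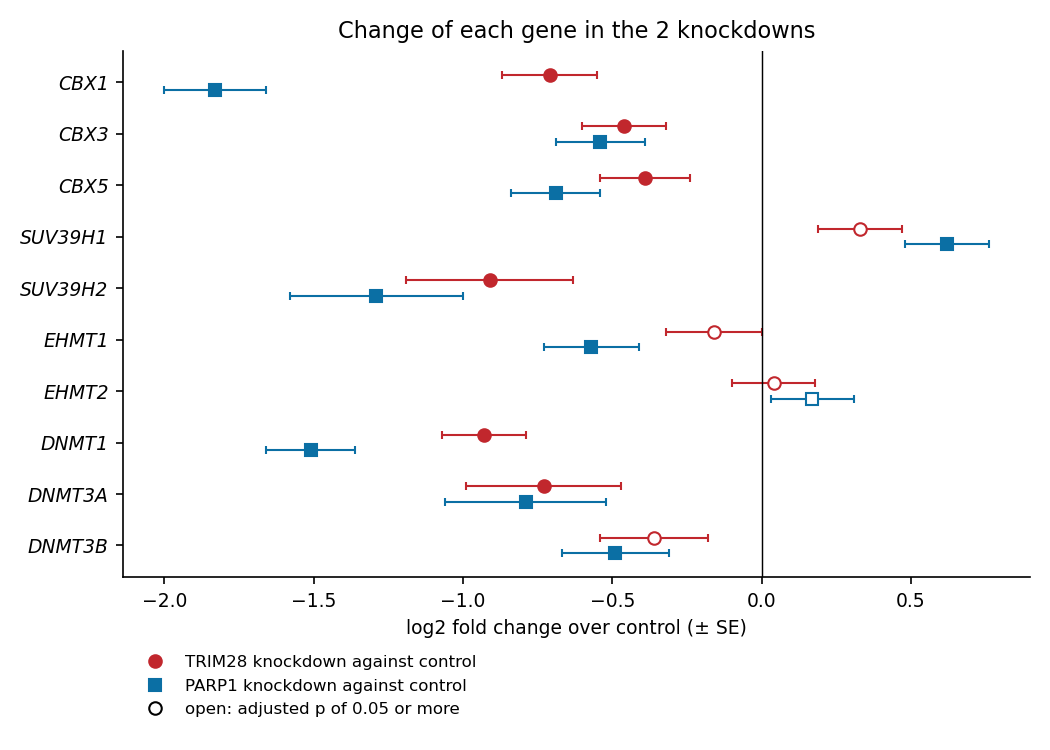
Log2 fold change over control (horizontal axis) of the 10 genes in TRIM28 knockdown (red circles) and PARP1 knockdown (blue squares), with SE bars and open symbols where the edgeR adjusted p was 0.05 or more. CBX1 at -1.83 and DNMT1 at -1.51 in PARP1 knockdown lie farthest below 0, and SUV39H1 at 0.62 in PARP1 knockdown lies farthest above.

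DNMT1, the maintenance DNA methyltransferase, fell in both knockdowns (ENSG00000130816, chromosome 19, 10133342 to 10231286, minus strand). It stood at 61.3, 52.8 and 72.4 CPM in TRIM28 knockdown, 47.8, 39.8 and 36.6 CPM in PARP1 knockdown, and 125, 128 and 102 CPM in control. The 3 groups did not overlap. The fall was 1.90-fold in TRIM28 knockdown (log2 fold change -0.93 ± 0.14, edgeR adjusted p = 4.66e-05) and 2.85-fold in PARP1 knockdown (-1.51 ± 0.15, edgeR adjusted p = 8.73e-09), and no alternative ended either call in the 2 comparisons with control. Removing the length trend left -0.54 (edgeR adjusted p = 0.00608) in TRIM28 knockdown and -0.87 (edgeR adjusted p = 1e-05) in PARP1 knockdown. DNMT1 was 1.5-fold higher in TRIM28 knockdown than in PARP1 knockdown (log2 difference 0.58 ± 0.15, edgeR adjusted p = 0.00596), which did not pass with the length trend removed (0.34), without TRIM28 knockdown replicate 3 (0.44) or with limma over all genes (0.57).

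DNMT3A, a de novo methyltransferase, was the lowest of the 10 genes per length (ENSG00000119772, chromosome 2, 25227855 to 25342590, minus strand). It stood at 2.37, 2.63 and 3.13 CPM in TRIM28 knockdown, 3.38, 2.11 and 2.18 CPM in PARP1 knockdown, and 5.00, 4.50 and 4.01 CPM in control, from 22 to 104 counts per library. Both knockdowns lay below control in every library and overlapped each other. DNMT3A fell 1.66-fold in TRIM28 knockdown (log2 fold change -0.73 ± 0.26, edgeR adjusted p = 0.0413) and 1.73-fold in PARP1 knockdown (-0.79 ± 0.27, edgeR adjusted p = 0.0141), with a difference of 0.07 ± 0.29 between them (edgeR adjusted p = 0.894). The first call ended without any 1 TRIM28 knockdown library (-0.83 to -0.63) or control replicate 1 (-0.63) or 2 (-0.71), with no filter (-0.75), with limma over all genes (-0.19), and with the length trend (-0.35) or length and GC trends (-0.46) removed. The second ended without PARP1 knockdown replicate 2 (-0.67) or 3 (-0.69) or control replicate 1 (-0.68), and with the length trend (-0.18) or length and GC trends (-0.32) removed.

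DNMT3B, the other de novo enzyme, passed the test in PARP1 knockdown only, and the difference between the knockdowns did not pass (ENSG00000088305, chromosome 20, 32762385 to 32809359, plus strand). It stood at 10.9, 13.5 and 12.8 CPM in TRIM28 knockdown, 14.1, 11 and 8.51 CPM in PARP1 knockdown, and 15.3, 16.2 and 16.0 CPM in control. Control lay above both knockdowns in every library, and PARP1 knockdown replicate 1 was the knockdown library nearest to it. In PARP1 knockdown it fell 1.40-fold (log2 fold change -0.49 ± 0.18, edgeR adjusted p = 0.0255), and in TRIM28 knockdown the change was -0.36 ± 0.18 (edgeR adjusted p = 0.144). The difference between the knockdowns was 0.13 ± 0.19 (edgeR adjusted p = 0.655). The PARP1 knockdown call ended when any 1 control library was left out, or replicate 2 or 3 of either knockdown (-0.48 to -0.33), and with the length trend (-0.13) or length and GC trends (-0.29) removed. No alternative turned the sign of DNMT1, DNMT3A or DNMT3B in either knockdown against control.

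The DNA methyltransferase genes summed to 6.06 ± 0.753 FPKM in TRIM28 knockdown, 4.05 ± 1.05 FPKM in PARP1 knockdown and 11.6 ± 1.42 FPKM in control (SD, n = 3), again without TMM scaling. DNMT1 held 66.7% ± 4.55 of that sum in TRIM28 knockdown, 60.1% ± 2.78 in PARP1 knockdown and 74.4% ± 2.32 in control, and DNMT3B 30.0% ± 4.34, 35.9% ± 2.63 and 22.4% ± 2.38 in the same order. DNMT1 is made mostly in dividing cells, so 14 proliferation markers were set beside it: in TRIM28 knockdown 6 fell and 8 did not pass (0 rose, also by DESeq2 and at an unadjusted edgeR p under 0.05), and in PARP1 knockdown 7 fell, 1 rose and 6 did not pass, with medians of -0.23 and -0.46 (log2). Of all tested genes 17.5% fell in TRIM28 knockdown, and 32.2% fell and 27.1% rose in PARP1 knockdown. MCM6, a subunit of the replicative helicase, fell by 1.20 on the log2 scale in TRIM28 knockdown (edgeR adjusted p = 0.000105) and by 2.07 in PARP1 knockdown (edgeR adjusted p = 1.84e-08). CDK1, the mitotic kinase, fell by 0.58 on the log2 scale in TRIM28 knockdown (edgeR adjusted p = 0.00691). In PARP1 knockdown it fell by 0.77 (edgeR adjusted p = 0.000144). The TRIM28 knockdown call ended without TRIM28 knockdown replicate 3 (-0.49) or control replicate 1 (-0.42) and with limma over all genes (-0.67). In PARP1 knockdown MCM4 fell by 1.05 (edgeR adjusted p = 1.47e-06) and MCM7 rose by 0.35 (edgeR adjusted p = 0.016). MCM4 also fell in TRIM28 knockdown, by 0.51 (edgeR adjusted p = 0.011). The rise of MCM7 did not pass with library totals (0.03), with length and GC trends removed (0.07), with no filter (0.32) or without control replicate 2 (0.36). The 14 markers summed to between 1880 and 1920 CPM in TRIM28 knockdown, 1720 and 1970 CPM in PARP1 knockdown and 1980 and 2040 CPM in control, and none was at 0. Their part in the changes of DNMT1 was not tested, and in bulk libraries fewer cells of a type and less RNA per cell cannot be told apart.

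Gene length moved with the fold changes. The tested genes were put into 10 equal classes by summed exon length, and the median log2 fold change went down with length, from the shortest class to the longest, from 0.33 to -0.39 in TRIM28 knockdown and from 0.65 to -0.67 in PARP1 knockdown. CBX1 (3044 bases) and SUV39H1 (3233 bases) lie in the same class, the third, whose median was 0.17 in TRIM28 knockdown and 0.26 in PARP1 knockdown, and CBX1 lay far below it. SUV39H2 (3565 bases) lies in the fourth class, with medians of 0.08 and 0.09, and CBX3 (4840 bases) in the fifth, with medians of -0.02 and -0.09. Both lay below these medians in both knockdowns. CBX5 (15038 bases), EHMT1 (22188 bases), DNMT1 (15379 bases) and DNMT3A (13781 bases) lie in the longest class, of which 34.6% fell in TRIM28 knockdown and 53.4% in PARP1 knockdown. There CBX5 equalled the class median in TRIM28 knockdown (-0.39 for both) and lay near it in PARP1 knockdown (-0.69 against -0.67), whereas DNMT1 lay below it in both. DNMT3B (6876 bases) lies in a class with medians of -0.17 and -0.38, and EHMT2 (7300 bases) in one with medians of -0.24 and -0.49 that it exceeded in both knockdowns. The part of length in these changes is given only through the fits with length trends removed.

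**Figure D3:**
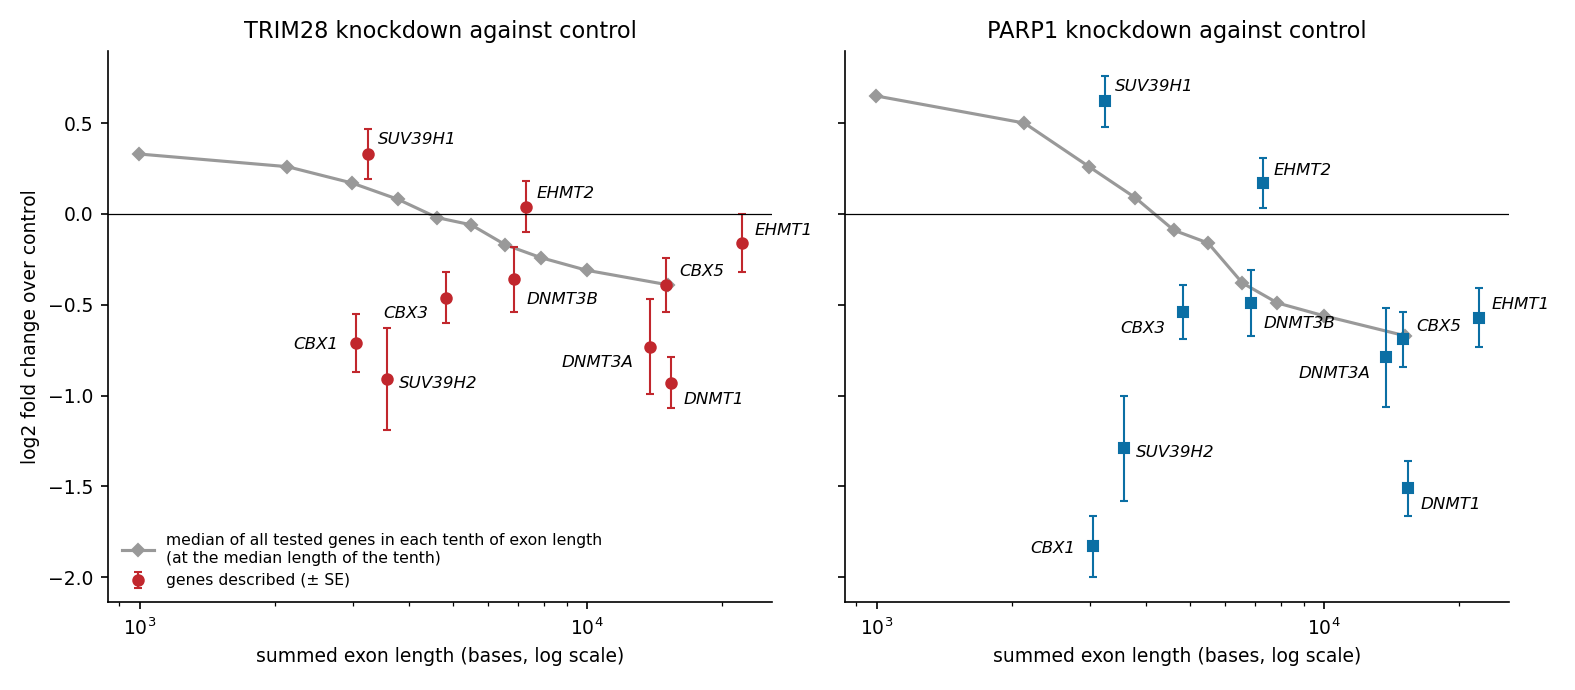
Log2 fold change over control (vertical axis, SE bars) of the 10 genes against summed exon length in bases (horizontal log axis) in TRIM28 knockdown (left) and PARP1 knockdown (right), with the median of all tested genes in each of 10 length classes as a grey line. CBX5 sits on the line in both panels, while CBX1, SUV39H2 and DNMT1 lie below it in both.

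**Figure D4:**
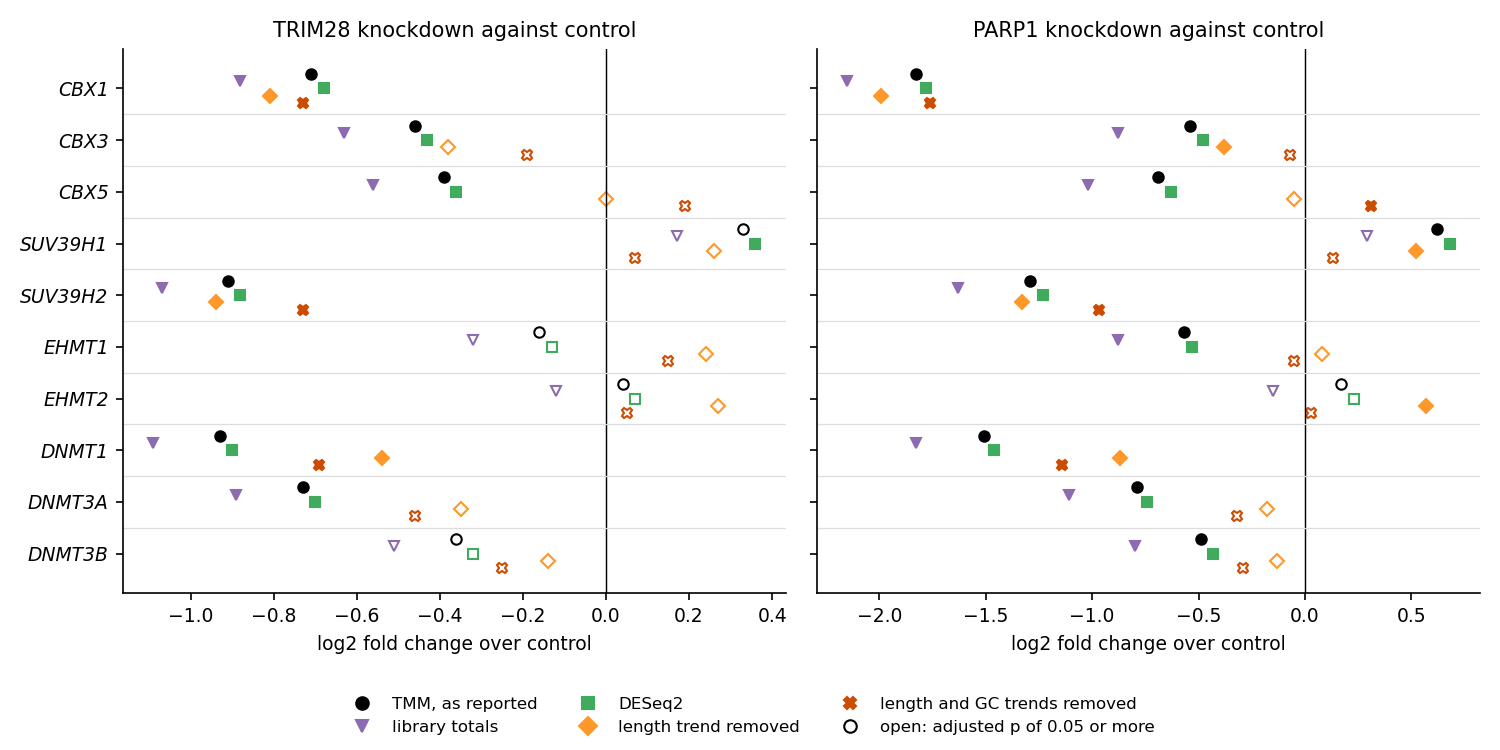
Log2 fold change over control (horizontal axes) of the 10 genes under 5 settings, filled where the adjusted p was below 0.05, in TRIM28 knockdown (left) and PARP1 knockdown (right). CBX1, SUV39H2 and DNMT1 stay filled and below 0 under all 5. With the length trend alone removed, CBX5, EHMT1, DNMT3A and DNMT3B are open in both panels. With length and GC trends removed, CBX5 is filled and above 0 in the right panel.

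CBX3 and CBX5 each share a divergent promoter region with a gene for an abundant RNA-binding protein, HNRNPA2B1 for CBX3 and HNRNPA1 for CBX5, and the CBX3 region is known as a ubiquitous chromatin opening element. The CBX3 window printed above lies inside both the CBX3 row and the HNRNPA2B1 row (chromosome 7, 26171151 to 26201529, minus strand), which share 368 bases on opposite strands. The CBX5 row ends at 54280133 and the HNRNPA1 row starts at 54280193 on the plus strand, so the CBX5 window reaches into HNRNPA1. HNRNPA2B1 stood at 216, 186 and 198 CPM in TRIM28 knockdown, 123, 130 and 102 CPM in PARP1 knockdown, and 494, 535 and 362 CPM in control. Its log2 fold change was -1.21 in TRIM28 knockdown (edgeR adjusted p = 2.23e-06), where CBX3 had -0.46, and -1.97 in PARP1 knockdown (edgeR adjusted p = 2.59e-10), where CBX3 had -0.54. HNRNPA2B1 was higher in TRIM28 knockdown than in PARP1 knockdown (0.76 ± 0.15, edgeR adjusted p = 0.00106).

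CBX3 stood at 41.1, 39.9 and 44.0% of the CPM of HNRNPA2B1 in TRIM28 knockdown, 54.3, 69.9 and 78.5% in PARP1 knockdown, and 26.9, 21.7 and 26.7% in control. These ratios did not overlap between any of the groups. HNRNPA1 stood at 528, 452 and 490 CPM in TRIM28 knockdown, 361, 340 and 215 CPM in PARP1 knockdown, and 773, 796 and 714 CPM in control. Its log2 fold change was -0.63 ± 0.15 in TRIM28 knockdown (edgeR adjusted p = 0.00357) and -1.32 ± 0.15 in PARP1 knockdown (edgeR adjusted p = 1.28e-07). The change in TRIM28 knockdown was -0.24 and did not pass once length and GC trends were removed. CBX5 was 5.72% ± 0.704 of the CPM of HNRNPA1 in TRIM28 knockdown, 7.82% ± 2.25 in PARP1 knockdown and 4.80% ± 0.483 in control (SD, n = 3). The difference between a gene and its neighbour was not itself tested, and the neighbours differ in length, at 12613 bases for HNRNPA2B1 and 6697 bases for HNRNPA1.

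**Figure D5:**
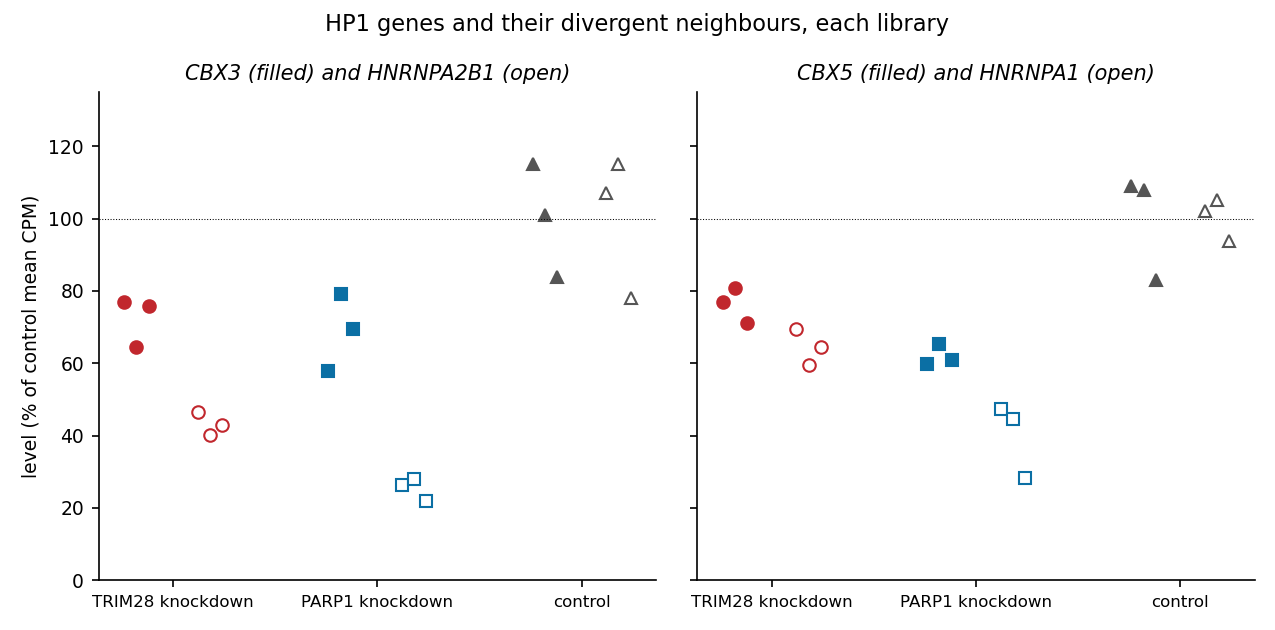
Level of CBX3 (filled) and HNRNPA2B1 (open) on the left, and of CBX5 (filled) and HNRNPA1 (open) on the right, in every library as a percentage of the control mean CPM (vertical axis), with a dotted line at 100%. In PARP1 knockdown the open symbols for HNRNPA2B1 lie below all filled symbols for CBX3.

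The rest of the pathway was read from 7 lists of partners, opposing enzymes and readers with 46 genes, of which 43 were tested. In TRIM28 knockdown 15 of the 43 fell, TRIM28 itself among them, and none of the others rose, where 17.5% of all tested genes fell and 10.3% rose, with a median log2 fold change of -0.43. In PARP1 knockdown 25 fell, 2 rose (TRIM28 and MBD3) and 16 did not pass, with a median of -0.73. There 32.2% of all tested genes fell and 27.1% rose. Between the knockdowns 14 were higher in TRIM28 knockdown, 2 lower and 27 did not pass, with a median of 0.29. The 2 lower were MBD3 and TRIM28 itself, the silenced gene. Of all tested genes 13.2% were higher and 11.9% lower. The medians over all tested genes were -0.02, -0.07 and 0.03, and limma over all genes ended each call between the knockdowns named here for these lists and for HNRNPA2B1 (log2 differences of 0.66 to 0.86). DESeq2 gave 0 higher and 14 lower in TRIM28 knockdown, and an unadjusted edgeR p under 0.05 gave 1 higher and 22 lower. Many of the listed genes are long. In the longest of the 10 length classes 34.6% of genes fell in TRIM28 knockdown and 53.4% in PARP1 knockdown, with medians of -0.39 and -0.67. The part of length in the falls of these lists was not tested.

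Other H3K9 methyltransferases were tested for 4 of 5 genes, and PRDM16 had 0 counts. SETDB1, the methyltransferase that TRIM28 recruits, stood at 20.2, 20.2 and 17.7 CPM in TRIM28 knockdown, 14.0, 8.63 and 9.50 CPM in PARP1 knockdown, and 35.4, 35.9 and 30.7 CPM in control. These groups did not overlap. SETDB1 fell by 0.81 on the log2 scale in TRIM28 knockdown (edgeR adjusted p = 0.000871) and by 1.66 in PARP1 knockdown (edgeR adjusted p = 2.5e-08), and no alternative ended either call. PRDM2 also fell, by 0.89 in TRIM28 knockdown (edgeR adjusted p = 0.0162) and by 0.93 in PARP1 knockdown (edgeR adjusted p = 0.00548), but both calls ended with the length trend removed (-0.55 and -0.37), and the first also without TRIM28 knockdown replicate 1 (-0.90) or 2 (-0.76) or control replicate 1 (-0.72) or 2 (-0.84). SETDB2 and MECOM did not pass in any comparison. Of the partners of the EHMT dimer, CDYL, a chromodomain protein, fell by 0.95 in PARP1 knockdown (edgeR adjusted p = 9.48e-06), its change in TRIM28 knockdown was -0.37 (edgeR adjusted p = 0.0631), and WIZ and ZNF644 did not pass.

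Some of the opposing enzymes fell. Of 11 H3K9 demethylase genes, 4 fell in TRIM28 knockdown and 7 in PARP1 knockdown, and 0 rose in either, also at an unadjusted edgeR p under 0.05 and by DESeq2. Over all tested genes 17.5% fell and 10.3% rose in TRIM28 knockdown, and 32.2% and 27.1% in PARP1 knockdown. KDM3B, which removes the mono- and dimethyl forms, stood at 21.2, 25.2 and 23.2 CPM in TRIM28 knockdown, 15.7, 14.0 and 15.4 CPM in PARP1 knockdown, and 75.3, 74.8 and 52.3 CPM in control. Its log2 fold change was -1.54 in TRIM28 knockdown (edgeR adjusted p = 5.19e-07) and -2.16 in PARP1 knockdown (edgeR adjusted p = 2.01e-10). KDM4A, which removes the trimethyl form, fell by 1.02 in TRIM28 knockdown (edgeR adjusted p = 0.00023) and by 1.98 in PARP1 knockdown (edgeR adjusted p = 1.04e-08). KDM1A had log2 fold changes of -0.44 in TRIM28 knockdown (edgeR adjusted p = 0.0356) and -1.18 in PARP1 knockdown (edgeR adjusted p = 7.26e-07). It was thus higher in TRIM28 knockdown than in PARP1 knockdown, by 0.74 (edgeR adjusted p = 0.00196). KDM1A (18325 bases) lies in the longest length class, with medians of -0.39 in TRIM28 knockdown and -0.67 in PARP1 knockdown. KDM4B, KDM4D, KDM7A and JMJD1C did not pass in any comparison.

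Of 8 genes for HP1 partners, 6 fell in TRIM28 knockdown and 6 in PARP1 knockdown, where 17.5% and 32.2% of all tested genes fell. The 6 in TRIM28 knockdown include TRIM28 itself, the silenced gene, whose fall there was set by the design. LBR, an inner nuclear membrane protein that binds HP1, fell by 0.89 on the log2 scale in TRIM28 knockdown (edgeR adjusted p = 0.000709) and by 1.94 in PARP1 knockdown (edgeR adjusted p = 1.05e-08). POGZ, a zinc finger protein that binds HP1, fell by 1.60 in PARP1 knockdown (edgeR adjusted p = 2.27e-07). In TRIM28 knockdown it fell by 0.88 (edgeR adjusted p = 0.00123). INCENP, the scaffold of the chromosomal passenger complex, had log2 fold changes of -0.43 in TRIM28 knockdown (edgeR adjusted p = 0.0452) and -1.02 in PARP1 knockdown (edgeR adjusted p = 7.54e-06). It was higher in TRIM28 knockdown than in PARP1 knockdown by 0.60 (edgeR adjusted p = 0.00975). That difference did not pass without TRIM28 knockdown replicate 3 (0.50) or PARP1 knockdown replicate 2 (0.43). TRIM28 itself was 0.31 higher in PARP1 knockdown than in control (edgeR adjusted p = 0.0433), a call that did not hold with library totals (-0.01), with length and GC trends removed (-0.22), with no filter (0.28) or without PARP1 knockdown replicate 2 (0.33) or control replicate 1 (0.29) or 2 (0.34).

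The DNA methylation cofactors had 6 of 7 genes tested. In TRIM28 knockdown 2 fell and 4 did not pass, and in PARP1 knockdown 5 fell and 1 did not pass, where 17.5% and 32.2% of all tested genes fell. USP7, a deubiquitinase that stabilizes DNMT1 and UHRF1, fell by 1.06 on the log2 scale in TRIM28 knockdown (edgeR adjusted p = 0.000167) and by 1.67 in PARP1 knockdown (edgeR adjusted p = 8.66e-08). CDCA7L fell by 1.13 in PARP1 knockdown (edgeR adjusted p = 3.46e-07) and by 0.43 in TRIM28 knockdown (edgeR adjusted p = 0.0219), and the second call ended without TRIM28 knockdown replicate 2 (-0.36) or 3 (-0.41) or control replicate 1 (-0.39) or 2 (-0.43). Its paralog CDCA7, which activates the remodeller HELLS, had log2 fold changes of -0.34 in TRIM28 knockdown (edgeR adjusted p = 0.17) and -0.99 in PARP1 knockdown (edgeR adjusted p = 0.000101). CDCA7 was higher in TRIM28 knockdown than in PARP1 knockdown by 0.64 (edgeR adjusted p = 0.0184). That call ended when any of TRIM28 knockdown replicates 1 and 3 or PARP1 knockdown replicates 2 and 3 was left out (0.43 to 0.62). It also ended with length and GC trends removed (0.41). UHRF1, which brings DNMT1 to newly copied DNA and is named here after its values were seen, fell by 0.88 in PARP1 knockdown (edgeR adjusted p = 0.000206), with -0.38 in TRIM28 knockdown (edgeR adjusted p = 0.12). UHRF1 stood at 91.3 CPM in PARP1 knockdown replicate 1 and at 46.2 and 44.5 CPM in replicates 2 and 3, against 110 to 115 CPM in control.

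Of 3 tested genes of DNA demethylation, 1 fell in TRIM28 knockdown and 2 in PARP1 knockdown, where 17.5% and 32.2% of all tested genes fell. TET3, which oxidizes methylated cytosine, fell by 1.14 on the log2 scale in TRIM28 knockdown (edgeR adjusted p = 0.000119) and by 1.09 in PARP1 knockdown (edgeR adjusted p = 3.37e-05), and TET2 did not pass. TDG, the glycosylase that removes the oxidized base, fell by 1.36 in PARP1 knockdown (edgeR adjusted p = 1.3e-05). Of 8 genes listed as readers 0 passed in TRIM28 knockdown, where MBD2 came nearest at -0.36 (edgeR adjusted p = 0.101), and 5 did not pass in PARP1 knockdown. Binding to methylated CpG was not measured for any of them. DESeq2 also called 0 of these 8 in TRIM28 knockdown, and an unadjusted edgeR p under 0.05 gave 1 higher and 2 lower. MBD3, a subunit of the NuRD complex, stood at 205, 245 and 353 CPM in PARP1 knockdown, against 117, 117 and 142 CPM in control, and rose there by 1.09 on the log2 scale (edgeR adjusted p = 2.33e-06). MBD2 fell by 0.73 (edgeR adjusted p = 0.000602) and MBD4 by 0.95 (edgeR adjusted p = 0.0116) in PARP1 knockdown, and both calls ended with length and GC trends removed (-0.16 and -0.67), and that of MBD4 also without PARP1 knockdown replicate 1 (-0.66).

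Likeness of pattern was measured as the root mean square difference of centred log2 CPM over the 9 libraries, among 8463 genes with a symbol and a mean of at least 1 FPKM. Among the 10 genes, CBX3 and CBX5 were each other's nearest at 0.163, EHMT1 and DNMT3B at 0.147, and CBX1 and DNMT1 at 0.316. SUV39H1 and EHMT2 were also each other's nearest, at 0.245, and SUV39H1 was farthest from CBX1 at 1.07. Over all 8463 genes the nearest was SLC20A1 for CBX1 (0.0759), ESD for CBX3 (0.0826), PCYT1A for CBX5 (0.0594), PPAN for SUV39H1 (0.0464) and DLD for SUV39H2 (0.143). For EHMT1 it was MFN2 (0.0390), for EHMT2 SKIV2L (0.0523), for DNMT1 GALNT10 (0.0996), for DNMT3A POM121C (0.1) and for DNMT3B JOSD1 (0.0507). Every gene had a nearest neighbour outside the 10 that was closer than any of the other 9. That neighbour was sought among 8463 genes, and so many candidates favour a nearer gene. Whether the 10 move together therefore cannot be read from it.

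Reads of some rows may belong to a neighbour, since the library kit keeps strand but no source used here gives the strand setting of the counting. Besides HNRNPA2B1, the tested genes that share bases with one of the 10 are DCLRE1C on the strand opposite SUV39H2 (6957 bases), S1PR2 on the same strand as DNMT1 (9854 bases, 49 to 113 counts per library) and a short row within CBX5 with 3 to 14 counts. DCLRE1C had 7 to 65 counts per library, close in size to the 22 to 136 counts of SUV39H2. The HP1 genes and DNMT3A have 16 pseudogene rows in the table, of which CBX3P9 alone passed the filter, with 6 to 29 counts per library against 809 to 2759 for CBX3.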

How the data were processed

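Poly(A) RNA-seq libraries of 786-O cells were grouped by their labels, 3 libraries in each of 3 groups. The authors deposited raw counts per gene for 61806 genes, and FPKM values beside them. No deposited FPKM value departed by over 0.0051 from the count divided by summed exon length and by the library's total count, so these values carry no composition scaling. Per the submitters' processing notes, the build was GRCh38 and the tools named are STAR 2.7.9a, featureCounts 2.0.1, Trim Galore 0.6.6, FastQC 0.11.9, R 4.0.3 and DESeq2 1.30.0. The strand setting and annotation release were not given in the sources used here. Total counts ran from 11963110 to 20224374 per library.

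Counts were fitted with edgeR 4.0.16 (R 4.3.3) by its quasi-likelihood test with TMM factors, after filterByExpr, over all 3 groups (13562 genes, 6 residual degrees of freedom, biological coefficient of variation 0.149). The p-values were adjusted by Benjamini-Hochberg over all tested genes, with a threshold of 0.05. SE is the log2 fold change divided by the square root of F, and CPM values are TMM-scaled. The scripts were tested on simulated data. Alternatives were DESeq2 1.42.0, DESeq2 size factors in edgeR, library totals, no filter, a replicate block, limma 3.58.1 on log2(FPKM + 1) and log2(FPKM + 0.1) with a mean of at least 0.5 FPKM and on log2(FPKM + 1) with no filter, removal of trends with exon length and with length and GC content (lowess span 0.3), the 2 compared groups alone, and leaving out each library. Replicates of a group differed by more than counting noise, with chi-square per degree of freedom of 5.001 to 48.413, so none was taken for a repeat deposit. Replicate numbers were not treated as pairs.

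The 10 genes and the gene lists were chosen with earlier results of these data known. All 10 genes are named; from each list, names were limited to the 2 genes with the smallest adjusted p per direction and comparison (or the 1 smallest where none passed), not all of which are repeated here, and UHRF1 and the list genes said not to pass were named after their values were seen. Promoter sequences are from RefSeq (GRCh38.p14).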

Additional observations from a re-analysis of the deposited data

How the results depend on the processing

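With library totals the median log2 fold change over all tested genes shifted by -0.16 (TRIM28 knockdown) and -0.33 (PARP1 knockdown), and with the length trend removed by 0.1 and 0.18. In the same order, all-gene calls split into 1394 higher and 2374 lower and 3681 and 4361 with TMM, 453 and 2856 and 2024 and 5803 with library totals, 1566 and 1671 and 3883 and 3360 with the length trend removed, and 1474 and 1418 and 3236 and 3063 with length and GC trends removed. Between the knockdowns the splits were 1795 and 1612, 2350 and 640, 1306 and 1638, and 957 and 1026.

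Of the 10 genes, 6 passed in TRIM28 knockdown, which became 1 with limma over all genes and 3 with either trend removal, and ranged from 2 to 7 with 1 library left out at a time. The 9 of PARP1 knockdown became 4 with length and GC trends removed and lay between 7 and 9 without single libraries. The 2 between the knockdowns became 0 with limma over all genes and 1 with the length trend removed, and lay between 1 and 4. The other settings kept these counts within 1.5 times. All-gene calls in TRIM28 knockdown, 3768, became 2353 with limma on log2(FPKM + 0.1) and 1069 with limma over all genes, and those between the knockdowns, 3407, became 63 with limma over all genes and 1983 with length and GC trends removed.

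Signs turned as follows. Library totals and the 3 limma fits turned EHMT2 in TRIM28 knockdown (-0.12, -0.11, -0.12 and -0.11), in PARP1 knockdown (-0.15, -0.15, -0.16 and -0.15) and between the knockdowns (0.03, 0.04, 0.04 and 0.04), and TRIM28 in PARP1 knockdown (-0.01 in each). Length removal turned EHMT1 in TRIM28 knockdown (0.24) and PARP1 knockdown (0.08), PECAM1 in PARP1 knockdown (0.29) and, between the knockdowns, CBX3 (-0.00), DNMT3A (-0.18) and DNMT3B (-0.02). Length and GC removal turned CBX5 in TRIM28 knockdown (0.19) and PARP1 knockdown (0.31), EHMT1 in TRIM28 knockdown (0.15), TRIM28 (-0.22) and PECAM1 (0.43) in PARP1 knockdown and, between the knockdowns, CBX3 (-0.12), CBX5 (-0.12), EHMT2 (0.01) and DNMT3A (-0.14). Leaving out single libraries turned some signs, with ranges of -0.01 to 0.15 for EHMT2 in TRIM28 knockdown, -0.26 to 0.01 for PECAM1 in PARP1 knockdown and, between the knockdowns, -0.03 to 0.19 for CBX3, -0.08 to 0.34 for DNMT3A and -0.03 to 0.34 for DNMT3B. Beyond the trend fits themselves the cause was not tested.

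Same-numbered libraries had correlations of deviations between -0.081 and 0.141, so the numbers were not taken as pairs, and not every library correlated best with its own number. With the replicate block 7, 9 and 2 of the 10 genes passed in TRIM28 knockdown, in PARP1 knockdown and between them, and all-gene calls were 4085, 8071 and 3662; SUV39H1 was the gene added in TRIM28 knockdown (0.33, edgeR adjusted p = 0.0395). Counts of 22 to 136 per library limit SUV39H2 and DNMT3A.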
